A study of Mus musculus with 6 samples.

Results

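R-spondins are secreted proteins that raise the sensitivity of cells to Wnt ligands. They bind the leucine-rich repeat receptors Lgr4, Lgr5 and Lgr6 together with the transmembrane ubiquitin ligases Znrf3 and Rnf43, which otherwise mark Frizzled receptors and Lrp6 for removal from the cell surface; once an R-spondin has drawn a ligase away, more Wnt receptor stays at the surface. Lgr5 and Znrf3 are also known Wnt targets in gut epithelium. In mouse muscle cells R-spondins have been studied as promoters of differentiation and fusion.

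All 9 genes of this ligand, receptor and ligase system, of 22186 in the table, were found by their gene symbols: Rspo1, Rspo2, Rspo3 and Rspo4, Lgr4, Lgr5 and Lgr6, and Znrf3 and Rnf43. The family was selected on gene names while its TPM differences between Treg co-culture and control in these same libraries were already known. Its own values in that comparison are therefore given as a description, with no p-value and nothing inferred from them. The libraries were made from primary ADSCs (adipose-derived stromal cells, the fibroblast-like cells of fat) of WT mice. One group was sampled 48 h into co-culture with Treg (regulatory T cells, n = 3), and the other was the Ctrl group of ADSCs (n = 3). The 48 h is listed for the co-culture libraries only. The labels name no mouse strain, age or sex, and they do not say whether each replicate was an animal or culture of its own, so every test below is against a library-to-library spread that may be technical. ADSCs cultured with some other cell type were not part of the design, so what Treg did and what any co-culture would do cannot be told apart.

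Expression was deposited as TPM, the share of a gene among all transcripts after correction for gene length, so that levels of different genes can be compared. Each library adds up to 1000000 TPM, which leaves sequencing depth unknown and allows no counting interval. A library listed 6566 to 7073 genes at 0. The 10 adipose stromal markers, none at 0, summed to 1875 to 1915 TPM in co-culture libraries and 2447 to 2507 TPM in controls. Markers of other lineages were present too, 8 of skeletal muscle summing to 3310 to 3394 TPM in co-culture libraries and 1289 to 1334 TPM in controls, and 6 of mesothelium to 644 to 734 TPM over all libraries. The label is kept as given. Of 9 T cell markers in the table, Cd3e, Cd3d, Cd3g, Cd4, Il2ra and Ctla4 were at 0 in all 6 libraries, and the 9 summed to 1.45 to 1.87 TPM in co-culture libraries and 1.08 to 1.58 TPM in controls. Treg co-culture 1 stood apart by transcripts of other organs. Its 6 hepatocyte markers summed to 89.4 TPM against at most 0.462 TPM in any other library, and its 6 adult heart markers summed to 24.5 TPM against at most 1.72 TPM. Results are therefore also given without it.

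The balance of the 3 receptors differed between the groups while their summed TPM was only 1.08-fold higher in co-culture. Lgr5 was 4.00-fold lower and Lgr6 2.36-fold higher by mean TPM in co-culture than in control libraries, and the ranges of Lgr4 overlapped. On the ligand side Rspo1, Rspo2 and Rspo3 were all lower, Rspo1 by 3.14-fold. Of the 2 ligases, Znrf3 overlapped between the groups and Rnf43 was barely listed.

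**Figure D1:**
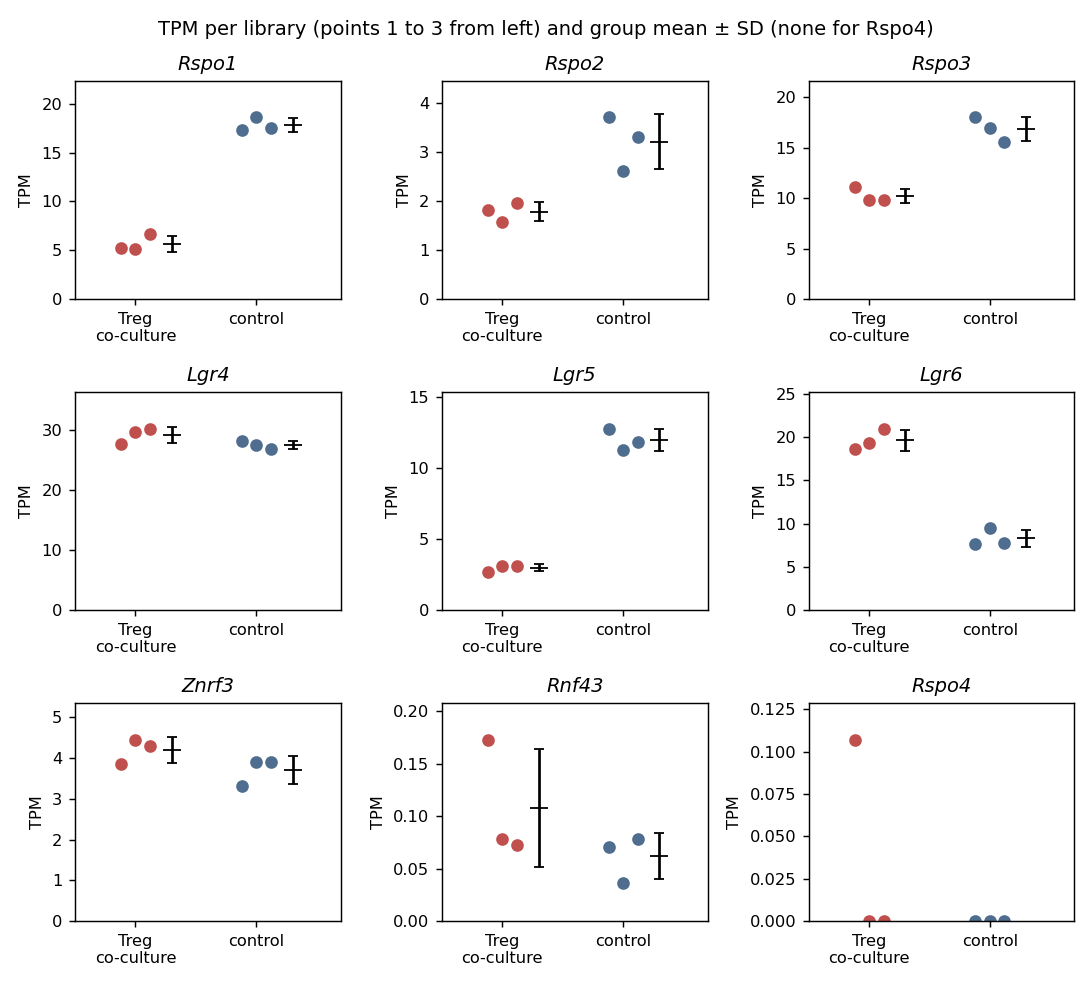
Level of each family gene in TPM (y axes start at 0 and differ between panels) in the 3 Treg co-culture libraries and the 3 control libraries. Group mean ± SD is drawn beside the points, except for Rspo4. Rspo1, Rspo2, Rspo3, Lgr5 and Lgr6 separate the groups, Lgr4 and Znrf3 overlap, and Rnf43 and Rspo4 stay under 0.2 TPM.

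Of the 9 genes, 7 passed a filter of 1 TPM on the mean of all 6 libraries and entered a limma fit of log2(TPM + 1) with the other genes of the table, 12405 in all. On that scale the change of low genes is understated. In it 5 of the 7 passed a Benjamini-Hochberg adjusted p of 0.05, 4 lower and 1 higher, where 37.8% of all genes tested passed (18.0% lower and 19.8% higher). The co-culture values of 5 of these 7 genes lay wholly on one side of the control values, against 49.3% of all genes tested. The untested Rspo4 and Rnf43 overlapped. Since this contrast was known when the family was picked, nothing is read from these counts. The libraries are bulk RNA, in which fewer cells that express a gene and less of its RNA per cell cannot be told apart.

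Among the ligands, Rspo1 (NCBI Gene 192199), an activator of Wnt signalling best known from ovary and gut, showed the deepest difference. Its level was 5.21, 5.18 and 6.64 TPM in Treg co-culture 1 to 3, against 17.3, 18.6 and 17.5 TPM in controls 1 to 3. The highest co-culture value was well under the lowest control value. The difference on the log2(TPM + 1) scale was -1.50 (SE 0.10), which ranks 15 from the bottom among all genes tested.

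Rspo3 (NCBI Gene 72780), which in mice acts in vessel and placenta development and in the liver, had 11.1, 9.85 and 9.77 TPM in Treg co-culture 1 to 3, against 18.0, 17.0 and 15.6 TPM in controls 1 to 3. The groups did not overlap, and the log2 difference was -0.67 (SE 0.08), a 1.65-fold lower mean. In co-culture libraries Rspo3 was the most abundant R-spondin, with 1.47 to 2.12 times the TPM of Rspo1. In controls the ranges of Rspo1 and Rspo3 overlapped, at a Rspo3 to Rspo1 ratio of 0.892 to 1.04.

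Rspo2 (NCBI Gene 239405), needed for limb and lung development in mice, was a minor ligand at 1.82, 1.58 and 1.95 TPM in Treg co-culture 1 to 3, against 3.70, 2.61 and 3.31 TPM in controls 1 to 3. Control 2 lay closest to the co-culture libraries, and the groups still did not overlap. The log2 difference was -0.59 (SE 0.15), the widest error of the 7 genes. Rspo4 (NCBI Gene 228770), the R-spondin of nail development, was listed at 0 in 5 libraries and at 0.107 TPM in Treg co-culture 1, the library with the hepatocyte and heart transcripts, whose part in that value was not tested.

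Summed over the 4 genes, R-spondin transcripts came to 18.2, 16.6 and 18.4 TPM in Treg co-culture 1 to 3, against 39.0, 38.2 and 36.4 TPM in controls 1 to 3, a 2.14-fold lower mean. The make-up of the sum shifted towards Rspo3, which held 57.8% ± 4.01 of it in co-culture and 44.5% ± 1.64 in controls (SD, n = 3 each). The share of Rspo1 was 32.0% ± 3.83 in co-culture and 47.0% ± 2.34 in controls. The share of Rspo2 was 9.50% to 10.6% in co-culture and 6.83% to 9.50% in controls.

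Among the receptors, Lgr5 (NCBI Gene 14160), which marks stem cells of the intestinal crypt and hair follicle, had 2.69, 3.15 and 3.15 TPM in Treg co-culture 1 to 3, against 12.8, 11.3 and 11.8 TPM in controls 1 to 3. The co-culture libraries lay close together and far under every control. The log2 difference was -1.70 (SE 0.10), which ranks 4 from the bottom among all genes tested. The protein-coding gene A930009A15Rik overlaps Lgr5 in RefSeq and averaged 0.0103 TPM in co-culture and 0.00967 TPM in controls. The 5 genes whose profile over the 6 libraries was nearest to that of Lgr5, of 10280 compared (root mean square difference of mean-centred log2 values), were the small matrix proteoglycan asporin, Aspn (0.088), Gpr165 (0.091), the Wnt modulator Sfrp2 (0.11), the interferon-induced Ifit1 (0.12) and elastin, Eln (0.13). With 2 groups of 3, such likeness is mostly a like difference between the groups.

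Lgr6 (NCBI Gene 329252), a marker of skin appendage stem cells, went the other way. It had 18.6, 19.3 and 21.0 TPM in Treg co-culture 1 to 3, against 7.71, 9.46 and 7.79 TPM in controls 1 to 3. The groups did not overlap. The log2 difference was 1.15 (SE 0.09), which ranks 72 from the top among all genes tested. The ratio of Lgr6 to Lgr5 transcripts was 6.12 to 6.91 in co-culture libraries and 0.602 to 0.838 in controls, so that Lgr6 was the more abundant of the pair in every co-culture library and the less abundant in every control.

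Lgr4 (NCBI Gene 107515), the most widely expressed of the receptors, was the most abundant gene of the family in both groups. It had 27.7, 29.7 and 30.2 TPM in Treg co-culture 1 to 3, against 28.1, 27.5 and 26.8 TPM in controls 1 to 3. The ranges overlapped, with Treg co-culture 1 among the controls. The log2 difference was 0.08 (SE 0.06) and did not pass the threshold.

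The 3 receptors together came to 48.9, 52.1 and 54.3 TPM in Treg co-culture 1 to 3, against 48.6, 48.3 and 46.4 TPM in controls 1 to 3. Treg co-culture 1 lay just above the highest control, and the ranges did not overlap. Lgr4 held 56.4% ± 0.694 of the sum in co-culture and 57.5% ± 0.429 in controls (SD, n = 3 each). Lgr5 held 5.78% ± 0.273 in co-culture and 25.1% ± 1.52 in controls. Lgr6 held 37.9% ± 0.810 in co-culture and 17.4% ± 1.95 in controls. R-spondin TPM per receptor TPM was 0.319 to 0.372 in co-culture and 0.784 to 0.802 in controls.

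**Figure D2:**
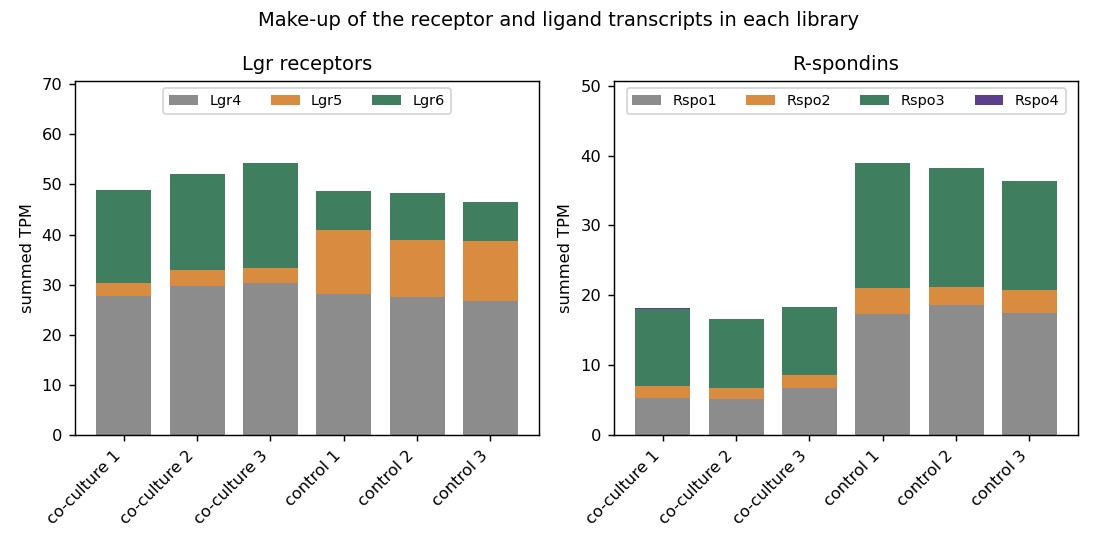
Summed TPM per library (bars from 0) of the 3 Lgr receptors (left) and the 4 R-spondins (right), 3 Treg co-culture libraries left of 3 control libraries. The receptor total lies between 46.4 and 54.3 TPM in all libraries with a larger Lgr6 and a smaller Lgr5 portion in co-culture, and the R-spondin total is 16.6 to 18.4 TPM after co-culture against 36.4 to 39.0 TPM in controls.

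Of the ligases, Znrf3 (NCBI Gene 407821) had 3.84, 4.44 and 4.29 TPM in Treg co-culture 1 to 3, against 3.30, 3.89 and 3.91 TPM in controls 1 to 3. Treg co-culture 1 lay within the control range. The log2 difference of 0.14 (SE 0.12) did not pass the threshold. Rnf43 (NCBI Gene 207742) had 0.173, 0.078 and 0.073 TPM in Treg co-culture 1 to 3, against 0.071, 0.037 and 0.078 TPM in controls 1 to 3. All 6 values lay under the filter, the groups overlapped, and the highest was again in Treg co-culture 1. With no filter its log2 difference was 0.06, and that of Rspo4 was 0.05, neither past the threshold.

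The order of levels changed accordingly. In co-culture libraries it ran Lgr4, Lgr6, Rspo3, Rspo1, Znrf3, Lgr5, Rspo2, Rnf43, Rspo4 from high to low, and of neighbours in that order only Rnf43 and Rspo4 overlapped. In controls it ran Lgr4, Rspo1, Rspo3, Lgr5, Lgr6, Znrf3, Rspo2, Rnf43, Rspo4, and the neighbours Rspo1 and Rspo3, and Znrf3 and Rspo2, overlapped. Lgr5 thus stood 6th of 9 in co-culture and 4th in controls, and Lgr6 stood 2nd in co-culture and 5th in controls.

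By the labels 1 co-culture and 1 control library share each of the batches 1 to 3, and the differences were of 1 sign within every batch for 6 of the 7 tested genes. For Lgr5 the log2 differences within batches 1 to 3 were -1.90, -1.57 and -1.63. For Lgr6 they were 1.17, 0.95 and 1.32. For Rspo1 they were -1.56, -1.66 and -1.27. For Rspo3 they ran from -0.73 to -0.62, for Rspo2 from -0.74 to -0.49 and for Znrf3 from 0.11 to 0.17. Lgr4 was at -0.02 in batch 1 and at 0.10 and 0.17 in batches 2 and 3. Without Treg co-culture 1 the log2 differences were -1.64 for Lgr5, -1.45 for Rspo1, -0.72 for Rspo3, -0.60 for Rspo2, 1.18 for Lgr6, 0.12 for Lgr4 and 0.19 for Znrf3.

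**Figure D3:**
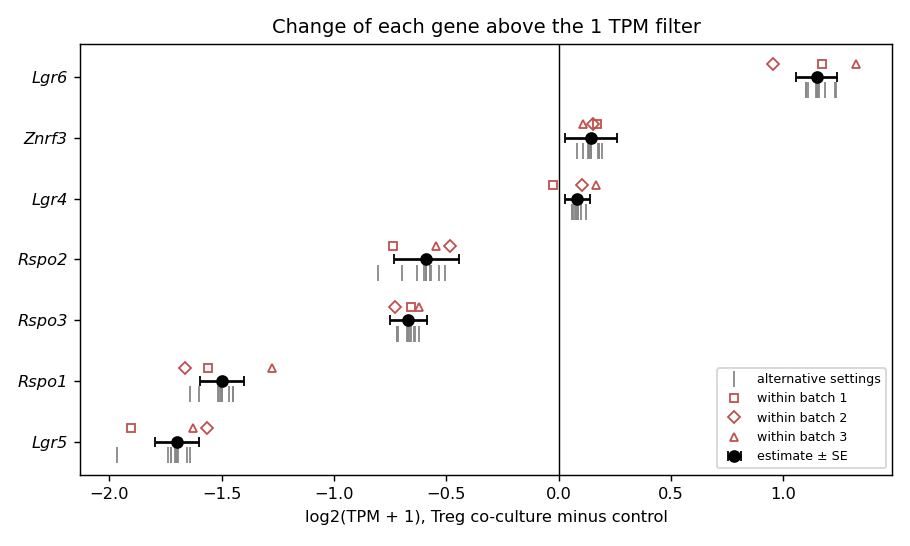
Difference of log2(TPM + 1), Treg co-culture minus control, for the 7 family genes above 1 TPM: limma estimate ± SE (black), the value within each of the 3 batches (red) and the values under 13 alternative settings (grey ticks). Lgr6 lies above 0 and Rspo1, Rspo2, Rspo3 and Lgr5 below 0 for all of them, while the Lgr4 value of batch 1 falls on the other side of 0.

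Markers of cell types are set beside these differences, to be read against the 37.8% of all genes tested that passed. All 8 skeletal muscle markers were higher in co-culture. Of the 10 adipose stromal markers 7 were lower and 1 higher. Of 8 endothelial markers 6 were tested, with 1 higher and 2 lower and sums of 39.5 to 42.8 TPM in co-culture and 46.2 to 48.5 TPM in controls. Of 6 mesothelial markers 3 were lower, with sums of 644 to 649 TPM in co-culture and 725 to 734 TPM in controls, and of 8 macrophage markers 1 of 6 tested was lower (63.4 to 75.5 TPM in co-culture, 87.6 to 94.1 TPM in controls). Of 5 epithelial markers 1 of 2 tested was higher, with sums of 143 to 156 TPM in co-culture and 130 to 133 TPM in controls, and Schwann and neural crest markers summed to at most 2.22 TPM in co-culture and 3.32 TPM in controls. The macrophage share lay below the share of all genes, and the epithelial list has too few tested markers to be read. The part of these cells in the R-spondin and Lgr differences was not tested.

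Promoter windows, from 250 bases before to 50 after an annotated start in RefSeq (GRCm38.p6), were at hand for Rspo1, Rspo4, Lgr4, Lgr6 and Rnf43, 6 windows in all. The stretches of Lgr6 (higher), Rspo1 (lower) and Lgr4 (overlapping) are shown up to the outermost annotated start of each gene, 5′ to 3′ on the gene's strand, with the MyoD E-box in capitals; they lie at chr1:135105375-135105526 on the minus strand, chr4:124986180-124986400 on the plus strand and chr2:109917397-109917646 on the plus strand.
Lgr6: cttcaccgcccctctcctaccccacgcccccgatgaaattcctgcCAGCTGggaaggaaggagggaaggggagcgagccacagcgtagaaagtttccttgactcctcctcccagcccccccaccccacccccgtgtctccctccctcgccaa
Rspo1: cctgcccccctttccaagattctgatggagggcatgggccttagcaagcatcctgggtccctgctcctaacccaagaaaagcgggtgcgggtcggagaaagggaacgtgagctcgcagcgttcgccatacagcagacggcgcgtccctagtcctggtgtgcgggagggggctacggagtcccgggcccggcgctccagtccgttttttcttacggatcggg
Lgr4: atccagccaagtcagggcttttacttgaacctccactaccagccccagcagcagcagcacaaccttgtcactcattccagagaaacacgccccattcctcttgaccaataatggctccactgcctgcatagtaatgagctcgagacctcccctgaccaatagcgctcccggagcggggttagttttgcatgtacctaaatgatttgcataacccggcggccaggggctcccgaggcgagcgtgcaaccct
Motifs were searched on both strands of the whole windows. The E-box CAGCTG, a form that the muscle factor Myod1 binds, occurred once, in the Lgr6 window, beginning 107 bases before the outermost annotated start and 205 bases before the later start that the window was built on, and 16.3% of all 32851 windows of 300 bases hold it. The TCF/LEF letters CTTTGAT or CTTTGTT were in none of the 6 windows and in 9.33% of all windows. The match describes these letters and is no evidence of binding.

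The rest of the Wnt pathway was taken from 7 lists with 100 genes in all outside the family. One of the lists holds 5 other leucine-rich repeat hormone receptors rather than Wnt pathway genes, and none of these passed the 1 TPM filter. The 70 genes that passed it were spread over the 6 Wnt pathway lists. In the limma fit 28 of the 70 were lower and 12 higher in co-culture, which is 57.1% against the 37.8% of all genes tested, and the median log2 difference was -0.11 against 0.00 for all genes. The share that passed differed by list. At 40.0% the Wnt ligand and secretion list lay close to all genes tested. Next came beta-catenin turnover and TCF/LEF, with 9 of 20 genes. Receptors had 57.1%, partners 60.0%, Wnt targets 71.4% and antagonists 88.9%. The 70 genes shared libraries and normalization, and the lists were compared with other genes by no test. The p-values below are Benjamini-Hochberg adjusted over all genes tested in limma. The lists were chosen with earlier results of these data known, and most genes are named for a low adjusted p. These p-values therefore describe the named genes and are no test of the lists.

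The partners that R-spondins, Lgr receptors and the ligases bind or depend on moved in both directions, with 3 of 10 tested higher, 3 lower and a median of -0.05. The heparan sulphate proteoglycan Gpc3, a surface partner of R-spondins, fell to 14.0 ± 1.08 TPM in co-culture, against 34.7 ± 2.73 TPM in controls (SD, n = 3 each; log2 difference -1.25, adjusted p = 1.12e-06). Iqgap1, a scaffold that binds Lgr4, rose to 228 ± 1.80 TPM in co-culture, against 174 ± 1.29 TPM in controls (adjusted p = 1.87e-06). Ptprk, a phosphatase that acts on Znrf3 in frog embryos, rose by a log2 difference of 0.53 (adjusted p = 0.000122). Syndecan Sdc4, an Rspo3 receptor in frog embryos, rose by 0.17 (adjusted p = 0.00401), and the BMP receptor Bmpr1a, which Rspo2 engages in frog embryos, fell by 0.18 on the log2 scale (adjusted p = 0.00255).

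Among Wnt receptors and co-receptors, which include the Frizzled and Lrp6 targets of the ligases, 7 of 14 tested fell and 1 rose, with a median of -0.18. Lrp6, the Wnt co-receptor, was at 47.0 ± 0.397 TPM in co-culture and 62.9 ± 1.64 TPM in controls (log2 difference -0.41, adjusted p = 2.83e-05). Its relative Lrp5 (-0.35, adjusted p = 0.00107) and the receptors Fzd5 (-0.50, adjusted p = 0.000292) and Fzd8 (-0.55, adjusted p = 0.000594) fell too, and Fzd7 was the 1 that rose (0.33, adjusted p = 0.000513). The 10 Frizzled genes summed to 228 to 238 TPM in co-culture libraries and 255 to 263 TPM in controls. The receptors Ryk (-0.01) and Ptk7 (-0.02), the most abundant of the list, did not pass the threshold.

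Of 10 tested Wnt ligand and secretion genes, 3 fell and 1 rose, with a median of -0.06. Wnt16 fell to 18.6 ± 1.25 TPM in co-culture, against 35.2 ± 2.76 TPM in controls (log2 difference -0.89, adjusted p = 8.34e-06). The Wnt carrier Wls fell by 0.20 (adjusted p = 0.000284), and Wnt2 rose by 0.67 (adjusted p = 0.00924). Wnt5a, the most abundant ligand, fell by 0.13 (adjusted p = 0.0446), a call that ended without any 1 of the 6 libraries (adjusted p = 0.0591 to 0.133), with the batch as a block (adjusted p = 0.0669) and without the variance trend (adjusted p = 0.0503).

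Of 9 tested genes listed as Wnt antagonists, secreted or at the membrane, 6 fell and 2 rose, with a median of -0.73. Sfrp1, a secreted decoy for Wnt ligands and the most abundant of the list, was at 359 ± 5.58 TPM in co-culture and 596 ± 1.68 TPM in controls (log2 difference -0.73, adjusted p = 6.13e-09). Its relatives Sfrp2 (-1.56, adjusted p = 1.74e-07), Frzb (-1.07, adjusted p = 0.000131) and Sfrp4 (-0.98, adjusted p = 5.14e-05) fell as well. So did the membrane inhibitor Apcdd1 (-0.92, adjusted p = 4.61e-06) and Dkk3 (-0.48, adjusted p = 7.3e-05). Dkk2 rose by 0.17 (adjusted p = 0.0159), a call lost without Treg co-culture 2 (0.0507 adjusted), Treg co-culture 3 (0.0548), control 2 (0.0598) or control 3 (0.0515). Kremen1 was the other gene that rose (0.15, adjusted p = 0.0218). The count of higher antagonists was 0 without Treg co-culture 3 or control 2, and 1 without Treg co-culture 1, Treg co-culture 2 or control 3. Without Treg co-culture 1 Dkk2 still passed (adjusted p = 0.0238), so the call lost there was that of Kremen1.

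Downstream, 7 of 20 tested genes of beta-catenin turnover and TCF/LEF fell and 2 rose, with a median of -0.08. The transcription factor Lef1, itself a Wnt target, rose to 2.17 ± 0.625 TPM in co-culture, against 0.520 ± 0.0923 TPM in controls (log2 difference 1.05, adjusted p = 0.00134). Its relatives Tcf7l2 (-0.45, adjusted p = 0.00192) and Tcf7l1 (-0.38, adjusted p = 0.00511), the coactivator Bcl9l (-0.35, adjusted p = 0.00134) and the Apc-binding Amer1 (-0.39, adjusted p = 0.00221) fell. Tcf7, the other relative, rose to 2.27 ± 0.475 TPM in co-culture, against 1.08 ± 0.158 TPM in controls (log2 difference 0.65, adjusted p = 0.0112), so 2 of the 4 TCF/LEF factors rose and 2 fell. With a pseudocount of 0.1 TPM, which shrinks low genes less, the log2 difference of Lef1 was 1.85. Beta-catenin itself, Ctnnb1, was at 455 ± 5.55 TPM in co-culture and 470 ± 10.8 TPM in controls (adjusted p = 0.173), a difference that passed with quantile normalization (adjusted p = 0.0263). The kinase Csnk1a1 was at 286 ± 5.29 TPM in co-culture and 278 ± 2.68 TPM in controls (adjusted p = 0.217).

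Of 7 tested Wnt target genes 3 rose and 2 fell, with a median of -0.02. The feedback inhibitor Nkd1 fell to 10.1 ± 1.02 TPM in co-culture, against 16.6 ± 1.45 TPM in controls (adjusted p = 0.000326). Axin2, the most widely used Wnt target, was at 1.08 ± 0.178 TPM in co-culture and 1.89 ± 0.156 TPM in controls (log2 difference -0.48, adjusted p = 0.031). With a pseudocount of 0.1 TPM the log2 difference was -0.76. The call was lost with the batch as a block (0.0508 adjusted) and without any 1 library other than Treg co-culture 1 (0.0543 to 0.0952), and the lower count was then 1, except without Treg co-culture 2, where Ccnd1 passed in its place (0.0358). Cd44 (0.58, adjusted p = 6.08e-07), Myc (0.43, adjusted p = 0.000196) and the pseudoreceptor Bambi (0.60, adjusted p = 0.00101) rose, and the cyclin Ccnd1 (-0.13, adjusted p = 0.0884) did not pass the threshold. Inputs other than Wnt were not tested for any gene of this list.

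**Figure D4:**
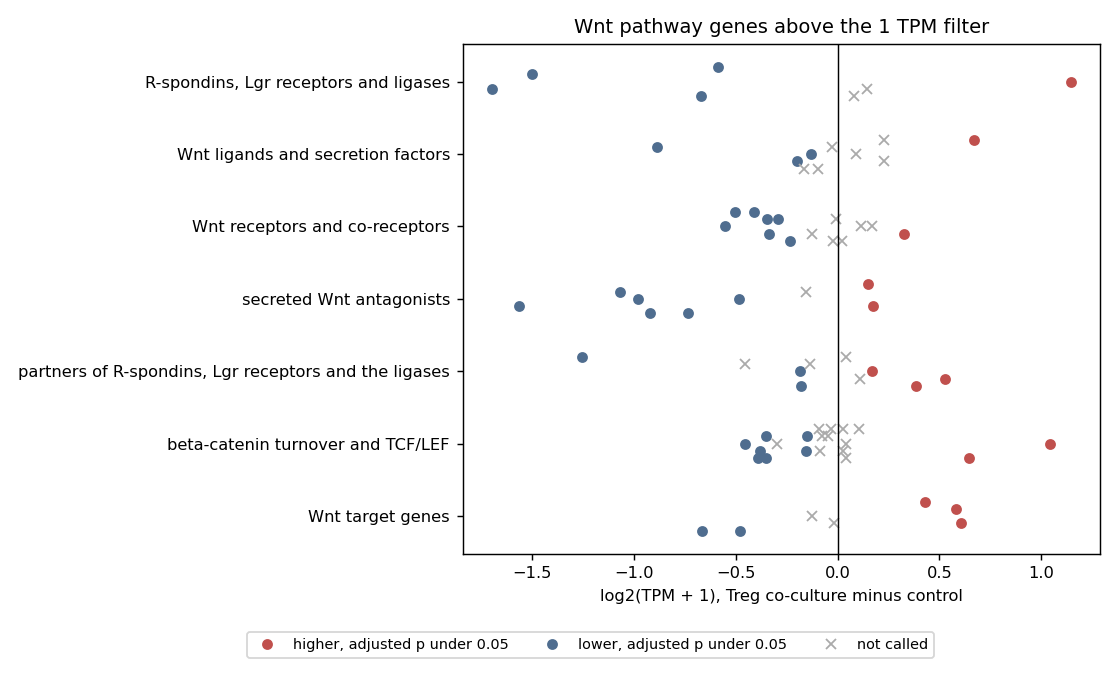
Difference of log2(TPM + 1), Treg co-culture minus control, of each gene above 1 TPM in the family (top) and in 6 Wnt pathway lists; dots passed an adjusted p of 0.05 in limma (red higher, blue lower) and crosses did not. Most dots of the antagonist and receptor lists lie below 0, and Lgr6 and Lef1 are the 2 dots beyond 1 on the right.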

How the data were processed

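RNA of 6 libraries of primary mouse ADSCs was extracted with Trizol and enriched for mRNA on beads, per the labels' protocols. The authors deposited TPM values in 1 table, with genes named by NCBI Gene number. GRCm38, mm10 and GRCm39 appear as builds in the submitters' processing notes, without a role; aligner, counting tool, strand setting and annotation were not given in the sources used here. Symbols came from an NCBI RefSeq gene table of GRCm38.p6 (21992 of 22186 numbers, 99.1%), used for names and overlapping genes; promoter windows carry that assembly's own coordinates, and none of the deposited values was placed by position.

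The log2(TPM + 1) values of 12405 genes averaging at least 1 TPM were fitted with limma 3.58.1 in R 4.3.3 (lmFit, eBayes with trend; Benjamini-Hochberg over all of them, threshold 0.05), a step tested on simulated data. The family and the lists were chosen with earlier results of these data known. Named pathway genes are, per list, up to 5 of lowest adjusted p past the threshold and the 2 most abundant; others were named after their values were seen. Batch numbers in the labels pair the libraries, though deviations from group means correlated only at 0.0115, -0.0146 and 0.00402 within batches 1 to 3 (-0.0606 to 0.0653 across them). No 2 libraries were copies (at most 60 of 13935 genes had equal values). Alternatives were a pseudocount of 0.1, no filter or 5 TPM, median-of-ratios scaling, quantile normalization, batch as a block, eBayes without trend, and each library left out. Tables and plots were made in Python 3.11.15 (pandas 2.3.3, matplotlib 3.10.9).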

Additional observations from a re-analysis of the deposited data

How the results depend on the processing

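Under 13 alternatives Rspo1, Rspo3, Lgr4, Lgr5 and Lgr6 kept their direction and their side of the threshold, as did Rspo2 and Znrf3 under the 12 that tested them (a 5 TPM filter left them out). All are refits of the same libraries, whose differences were known when the family was picked. They describe how the values depend on the processing and add no support for the calls. The log2 differences ranged from -1.97 to -1.64 for Lgr5, -1.64 to -1.45 for Rspo1, -0.72 to -0.62 for Rspo3, -0.80 to -0.50 for Rspo2 and 1.10 to 1.23 for Lgr6. With the replicate block the family still had 4 lower and 1 higher gene, and 2369 of all genes were higher and 2123 lower, against 2454 and 2234 without it. The block changed the call of 2 named genes, Wnt5a and Axin2, and the Wnt target list then had 1 lower gene, as with a 5 TPM filter. Wnt ligands had 2 higher genes with a pseudocount of 0.1, with no filter, with quantile normalization and without the trend, and the TCF/LEF list had 0 higher genes with a 5 TPM filter, which left out Lef1 and Tcf7. Leaving out 1 library gave 0 to 2 higher antagonists and 1 to 2 lower Wnt targets. The beta-catenin turnover and TCF/LEF list had 5 lower genes without Treg co-culture 1, Treg co-culture 2, control 1 or control 3. With quantile normalization it had 9, and 2 were higher in each of these settings. Over all lists 24 genes were lower and 11 higher without Treg co-culture 1, and 32 lower and 13 higher with quantile normalization. Signs turned for Ryk (0.0033 by quantile normalization, -0.0286 to 0.0188 without 1 library) and Ptk7 (-0.0766 to 0.0243 without 1 library), none of them called. The cause of these shifts was not tested. Depth cannot be read from TPM, so values under 1 TPM, as for Rspo4 and Rnf43, have no known counting error.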

Other observations

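The 5 other leucine-rich repeat hormone receptors, Rxfp1, Rxfp2, Lhcgr, Fshr and Tshr, none of which binds R-spondins, were all under the filter. Rxfp2 and Lhcgr were listed at 0 in all 6 libraries. The highest value of the others was 0.427 TPM, for the thyrotropin receptor Tshr in Treg co-culture 3. Of the 19 Wnt ligand genes Wnt3, Wnt3a and Wnt8b were at 0 in all libraries. Wnt10b, a ligand known to hold back fat cell formation, was under the filter and was singled out after its values were seen. It had 0.684, 0.590 and 0.760 TPM in Treg co-culture 1 to 3, against 0.283, 0.097 and 0.155 TPM in controls 1 to 3. Wnt7b, also under the filter, was higher without overlap too (0.472, 0.288 and 0.317 TPM against 0.078, 0.239 and 0.165 TPM). Wnt6 went the other way, at 0 TPM in every co-culture library against 0.139, 0.071 and 0.152 TPM in controls 1 to 3.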
